A study of Mus musculus with 3 samples.

Results

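Mature microRNAs from the miR-146a, miR-146b and miR-155 hairpins were followed in mouse liver through ischemia and reperfusion. All rows named for either arm of these hairpins were taken, which gave 6 of the 1908 mature microRNAs listed in each count file. At least 1 read was found for 4 of them, and 2 (mmu-miR-146b-3p and mmu-miR-155-3p) had no read in any library. The choice of these rows used names only and no measured value.

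All groups were male C57BL/6J mice, an inbred strain, 8 to 10 weeks old, operated under anesthesia. Sham mice had the abdomen opened and the livers were taken 90 min later. In the WI (warm ischemia) group the vessels and bile duct of the left and median lobes were clamped for 90 min. In the IR (ischemia followed by reperfusion) group the same clamp was removed and blood flowed for 120 min. Each group was represented by 1 small RNA library from liver tissue, and whether it pooled several of the 6 mice per group was not stated. Sham livers were not kept for the added reperfusion time, so reperfusion and time since surgery cannot be told apart in IR. The libraries held between 3784539 (IR) and 5064014 (WI) microRNA reads.

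Inflammatory signals that reach the transcription factor NF-κB, such as those from Toll-like receptors, are known to induce the miR-146a and miR-155 genes in immune cells. MiR-146 acts as a brake on this pathway, since it represses the adaptor proteins IRAK1 and TRAF6 downstream of Toll-like receptors. MiR-155 is known mostly for promoting macrophage and lymphocyte activation, in part by repression of the phosphatase SHIP1 and of the suppressor SOCS1. Resident macrophages (Kupffer cells) and infiltrating leukocytes carry out the innate immune response to reperfusion in liver.

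The mature sequences of the arms that gave reads are shown 5′ to 3′ from RefSeq, where all 6 names were matched, because the seed fixes which messenger RNAs they pair with. Capitals mark the seed, bases 2 to 8.
mmu-miR-146a-5p: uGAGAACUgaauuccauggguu
mmu-miR-146b-5p: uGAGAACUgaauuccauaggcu
mmu-miR-155-5p: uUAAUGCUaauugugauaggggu
mmu-miR-146a-3p: cCUGUGAAauucaguucuucag

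MiR-146a-5p and miR-146b-5p shared 1 seed, and among 1679 mature mouse microRNAs in RefSeq they were the only 2 with it. Their sequences were identical at 20 of 22 positions. The differences, counted from 1 at the 5′ end with the base of miR-146a-5p first, were G18A and U21C. Their first 17 bases were the same, so a read that ended there could come from either, and how such reads were divided was not given in the sources used here. MiR-155-5p was the sole RefSeq microRNA with its own seed, and miR-146a-3p likewise. The 3p arms of the miR-146 hairpins were unlike each other, with 4 of 22 positions identical.

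The hairpins are shown next because the 2 arms of each were counted separately, and the capitals mark the 5p arm and then the 3p arm. They were read from the mm9 genome, and each was identical to its RefSeq entry.
miR-146a hairpin: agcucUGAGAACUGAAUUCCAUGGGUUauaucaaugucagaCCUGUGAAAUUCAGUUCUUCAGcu
miR-146b hairpin: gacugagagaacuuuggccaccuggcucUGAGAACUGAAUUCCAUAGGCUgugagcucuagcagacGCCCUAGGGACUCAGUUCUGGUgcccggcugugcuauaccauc
miR-155 hairpin: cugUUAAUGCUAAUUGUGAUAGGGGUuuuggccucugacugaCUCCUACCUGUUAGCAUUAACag

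The 3 hairpins lie on different chromosomes. The miR-146a hairpin (Mir146, ENSMUSG00000065601.1) occupies chr11:43187899-43187963 on the minus strand of mm9 and overlaps no other annotated gene, the nearest being the non-coding Gm12148 at a distance of 11021 bases. The miR-146b hairpin (Mir146b, ENSMUSG00000070127.2) occupies chr19:46417252-46417360 on the plus strand, within an intron of the protein-coding gene Tmem180. The miR-155 hairpin (Mir155, ENSMUSG00000065397.1) occupies chr16:84714385-84714449 on the plus strand, inside an exon of its long non-coding host transcript. Mature miR-146a-5p covers chr11:43187937-43187958, miR-146b-5p covers chr19:46417280-46417301 and miR-155-5p covers chr16:84714388-84714410.

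Levels are given as reads per 1000000 (CPM) after trimmed mean of M-values (TMM) scaling, with 95% exact Poisson intervals that cover counting error only. Lengths ran only from 21 to 23 bases, so no length correction was made. Efficiencies of ligation and amplification differ between sequences and were not measured. Bulk levels also cannot tell fewer cells of a type from less RNA per cell.

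The main product of its hairpin, mmu-miR-146a-5p, was counted 5818 times in Sham, 7189 times in WI and 5620 times in IR. After scaling, these counts corresponded to 1469 CPM for Sham (interval 1432 to 1507), 1478 for WI (1444 to 1512) and 1469.7 for IR (1431 to 1509). The 3 intervals overlapped almost completely. It ranked 43rd of 653 detected microRNAs in Sham, 42nd of 682 in WI and 47th of 679 in IR.

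The arm with the same seed, mmu-miR-146b-5p, was counted 727 times in Sham, 887 times in WI and 775 times in IR. The scaled levels were 184 CPM for Sham (interval 170 to 197), 182 for WI (171 to 195) and 203 for IR (189 to 217). IR was the highest, and its interval overlapped both others. It ranked 101st in Sham, 99th in WI and 99th in IR.

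The guide strand of the third hairpin, mmu-miR-155-5p, was counted 80 times in Sham, 81 times in WI and 55 times in IR. Scaled levels were 20.2 CPM for Sham (interval 16.0 to 25.1), 16.6 for WI (13.2 to 20.7) and 14.4 for IR (10.8 to 18.7). Sham was the highest and IR the lowest, with overlapping intervals. Its rank went from 208th in Sham to 224th in WI and 233rd in IR.

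**Figure D1:**
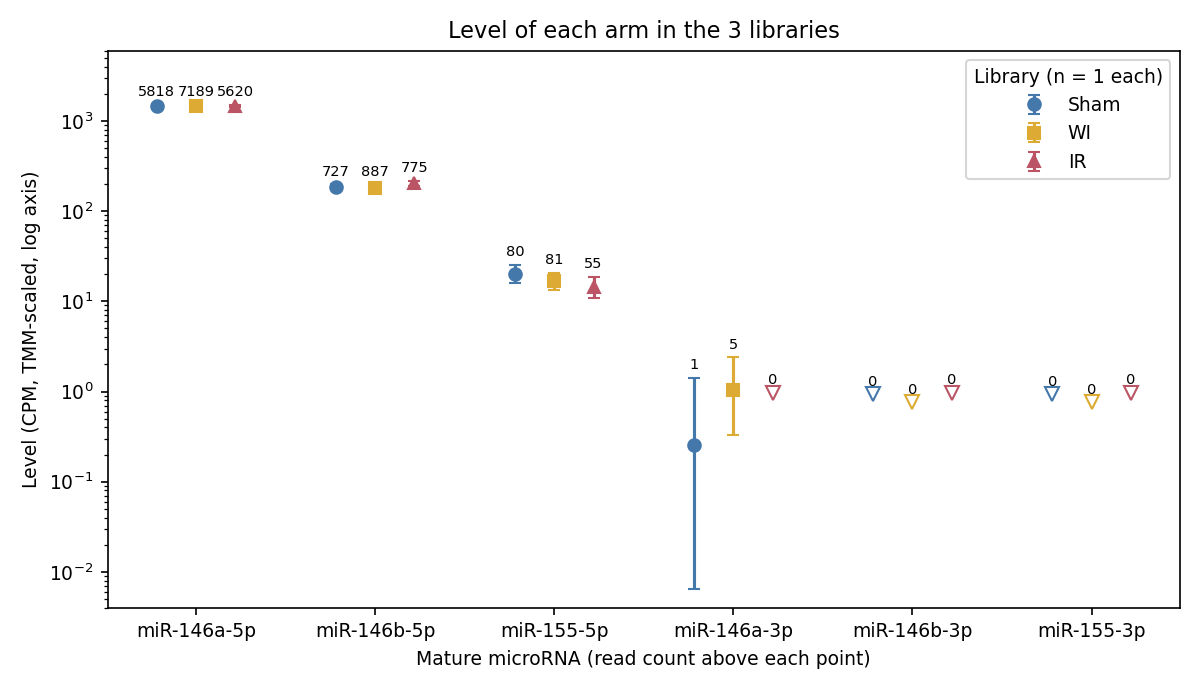
Level of each arm in CPM (log axis) in the Sham, WI and IR libraries, 1 library each, with 95% Poisson intervals and the read count above each point. Open triangles mark the upper limit of an arm with 0 reads. MiR-146a-5p sits near 1470 CPM in all 3 libraries, and the 3p arms are at or near 0.

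The 3p arms were almost absent. For mmu-miR-146a-3p, 1 read was counted in Sham, 5 were counted in WI and 0 in IR. Only the WI count was above the detection floor, which was set at 3 reads and equals 0.617 CPM in WI. The 5p arm therefore held 99.98% of the miR-146a reads of Sham (95% Wilson interval 99.90 to 99.997), 99.93% of those of WI (99.84 to 99.97) and 100% of those of IR (99.93 to 100). No read of miR-146b-3p was found beside 727, 887 and 775 reads of its partner, and a floor of 3 reads corresponds to a 3p share of 0.413% in Sham, 0.338% in WI and 0.387% in IR. No read of miR-155-3p was found beside 80, 81 and 55 reads, where the same floor corresponds to 3.75%, 3.70% and 5.45%. The limit for miR-155 is higher because its 5p arm was sparse.

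The order of levels was the same in all 3 libraries. MiR-146a-5p was highest, followed by miR-146b-5p, miR-155-5p and miR-146a-3p, and the intervals of neighbours among these did not overlap in any library. Where miR-146a-3p had reads, its interval overlapped the range allowed for the arms with no read. MiR-146a-5p exceeded miR-155-5p by a ratio of 72.7 in Sham, 88.8 in WI and 102 in IR. All 6 arms together took 0.172% of the microRNA reads of Sham, 0.161% of those of WI and 0.170% of those of IR.

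Pairwise comparisons asked whether these microRNAs changed after ischemia alone or once blood returned. Fisher's exact test (two-sided) was applied to each microRNA, which was called at a fold change above 1.5 with an unadjusted p under 0.01. Such a test sets 1 library against another rather than 1 condition against another, and replicates to check a difference were lacking. Of the 4 arms with reads, 0 were called in WI against Sham, where 1.92% of the 782 tested microRNAs were called. In IR against WI 0 of 4 were called, beside 9.25% of 789. In IR against Sham 0 of 4 were called, beside 7.11% of 774. At an unadjusted p under 0.05 without the fold threshold the counts were 0, 1 and 0 of 4, beside 18.0%, 23.7% and 21.2% of all tested. Each of these counts depended on the scaling. In IR against Sham miR-155-5p had a Fisher's exact p of 0.0311 to 0.0474 under 4 other settings. These were thinning, library totals, DESeq2 size factors, and totals that omit the 10 most abundant microRNAs. With genome-aligned totals it was 0.00958. For miR-146a-5p in IR against Sham, Fisher's exact p was 0.0176 without the 10 most abundant microRNAs and 5.07e-10 with genome-aligned totals. In WI against Sham its Fisher's exact p was 0.000291 with library totals and 1.02e-10 with genome-aligned totals. In IR against WI the same settings gave 0.0117 and 1.78e-38. For miR-146b-5p in IR against WI, Fisher's exact p was 0.00163 with library totals. With genome-aligned totals it was 0.0162, there with a negative log2 fold change (-0.17). Fisher's exact p of miR-146b-5p was 0.0457 in IR against Sham after thinning and 0.0435 in WI against Sham with genome-aligned totals. Thinning and DESeq2 size factors left the counts in WI against Sham and IR against WI unchanged. When a coefficient of variation of 0.1 was assumed in the exact test of edgeR, 0 of 4 were called in each comparison. This setting left the fold changes as they were and only allowed for more variation. It could hardly have added a call, so its 0 carries no weight. None of these arms, known for their induction in inflammation, was called higher, but 0 of 4 is near the share of all tested microRNAs and says little about the arms as a group.

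After ischemia alone, the log2 fold change of miR-146a-5p over Sham was 0.0083 (95% interval -0.042 to 0.058, Fisher's exact p = 0.744). That of miR-146b-5p was -0.0099 (-0.15 to 0.13, p = 0.900 by the same exact test). Both were close to 0, and the wider interval of miR-146b-5p follows its lower read count. MiR-155-5p had a log2 fold change of -0.28 (-0.74 to 0.19, Fisher's exact p = 0.235).

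Between WI and IR, miR-146a-5p had a log2 fold change of -0.0079 (-0.058 to 0.043, Fisher's exact p = 0.762). MiR-146b-5p had 0.15 (0.012 to 0.29, Fisher's exact p = 0.0316), the one value under 0.05. After Benjamini-Hochberg adjustment over all tested microRNAs the Fisher's exact p of miR-146b-5p was 0.147. MiR-155-5p had -0.21 (-0.73 to 0.30, Fisher's exact p = 0.437).

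Between Sham and IR, miR-146a-5p had one of 0.00046 (-0.053 to 0.054, Fisher's exact p = 0.993). That of miR-146b-5p was 0.14 (-0.0052 to 0.29, Fisher's exact p = 0.0562). MiR-155-5p had the largest shift of the 3 arms with at least 50 reads in every library, -0.49 (-1.01 to 0.023, Fisher's exact p = 0.0580). For miR-146b-5p and miR-155-5p alike, the p adjusted over all tested microRNAs was 0.249 (Fisher's exact test, Benjamini-Hochberg). The comparison with Sham and that with WI share the IR library, so they are not independent.

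**Figure D2:**
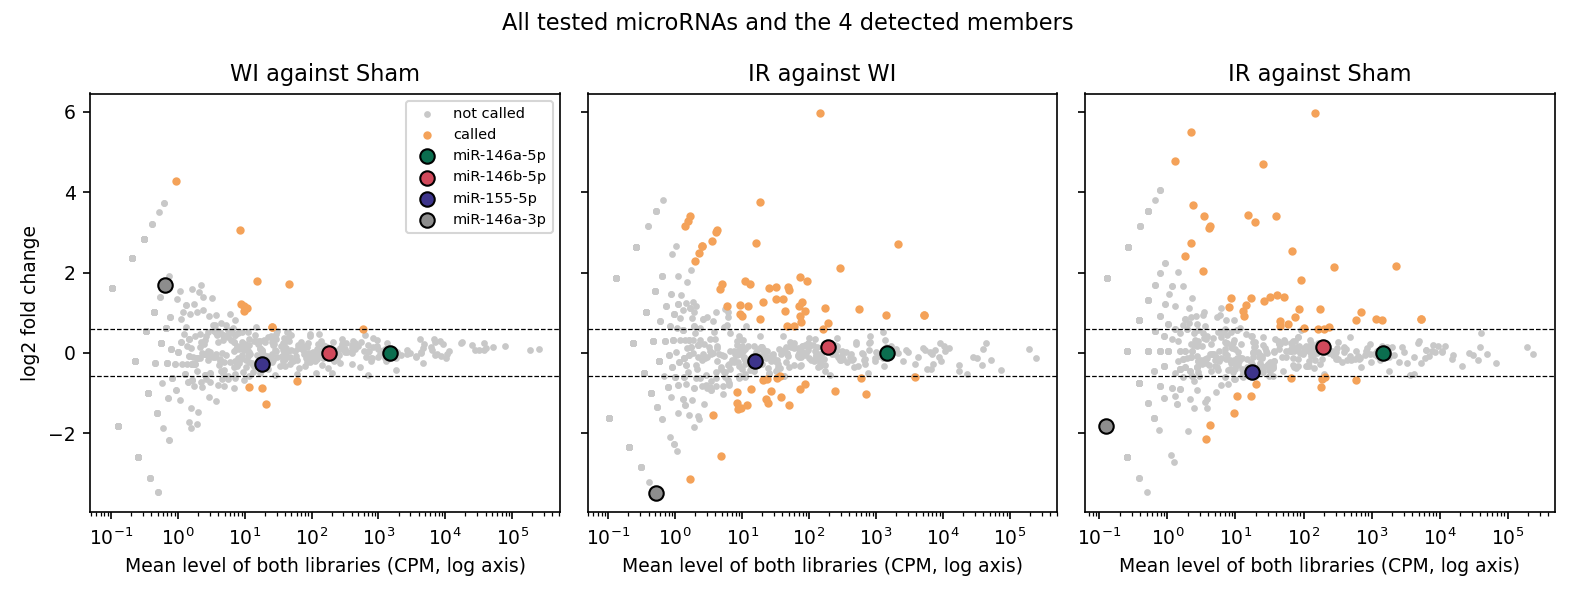
Log2 fold change (first library over the second) against the mean level in CPM (log axis) for all microRNAs tested in each comparison, with called microRNAs in orange, dashed lines at a fold change of 1.5 and the 4 detected arms as large points. MiR-146a-5p and miR-146b-5p lie within 0.16 of 0 in every panel, miR-155-5p lies below 0, and the position of miR-146a-3p rests on at most 5 reads.

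Changes of the 3p arm of miR-146a could hardly be measured. With IR set at the floor of 3 reads, the level in WI was 1.31-fold that in IR, a value that leaves out the counting error of WI. The counting interval of the log2 ratio of IR to WI had no lower limit and reached 0.47, so it included equal levels. The difference was not called (Fisher's exact p = 0.0715). From 1 read in Sham to 5 in WI the log2 ratio had a counting interval of -1.13 to 7.59 (Fisher's exact p = 0.233). No fold is given between Sham and IR, where both counts were at or under the floor.

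The counts show which changes could have been called. For miR-155-5p, equal levels in Sham and IR would have given 77 reads in IR, and a call needed 47 reads or fewer, or 117 or more. The observed 55 reads fell between. For miR-146b-5p, the IR library would have needed 467 reads or fewer, or 1054 or more, against 775 observed. For miR-146a-5p the limits were 3745 and 8428 reads, against 5620 observed. At this depth the fold threshold and not the read count set the limit for miR-146a-5p, whose interval excludes a change of 1.5-fold in either direction in all 3 comparisons as far as counting error goes.

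Apart from the small pseudocount, the position among all microRNAs does not depend on the scaling. Of 225 microRNAs with at least 50 reads in every library, 106 had a lower and 118 a higher log2 fold change than miR-146a-5p in IR against Sham. MiR-146a-5p was thus near the middle of the liver profile. For miR-146b-5p 157 were lower and 67 higher. For miR-155-5p only 13 were lower and 211 higher. In WI against Sham the numbers lower were 95 for miR-146a-5p, 88 for miR-146b-5p and 19 for miR-155-5p. In IR against WI the numbers higher were 99 for miR-146a-5p, 55 for miR-146b-5p and 167 for miR-155-5p, for which 57 were lower. The median log2 fold change of the 225 was 0.016 in IR against Sham and 0.044 in WI against Sham, and between IR and WI it was -0.036.

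Small directions depended on the scaling. With totals of reads aligned to the genome, the median log2 fold change of all tested microRNAs moved from 0.036 to -0.092 in IR against Sham, from -0.013 to -0.32 in IR against WI and from 0.046 to 0.20 in WI against Sham. MiR-155-5p was then called lower in IR against Sham, with a log2 fold change of -0.65 (Fisher's exact p = 0.00958). It kept its negative sign in all 3 comparisons under each of the 5 scalings. MiR-146b-5p had positive log2 fold changes of IR over Sham and over WI under the other 4 scalings, and with genome-aligned totals its log2 fold changes were -0.026 and -0.17. The direction of miR-146a-5p changed sign between scalings in every comparison.

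**Figure D3:**
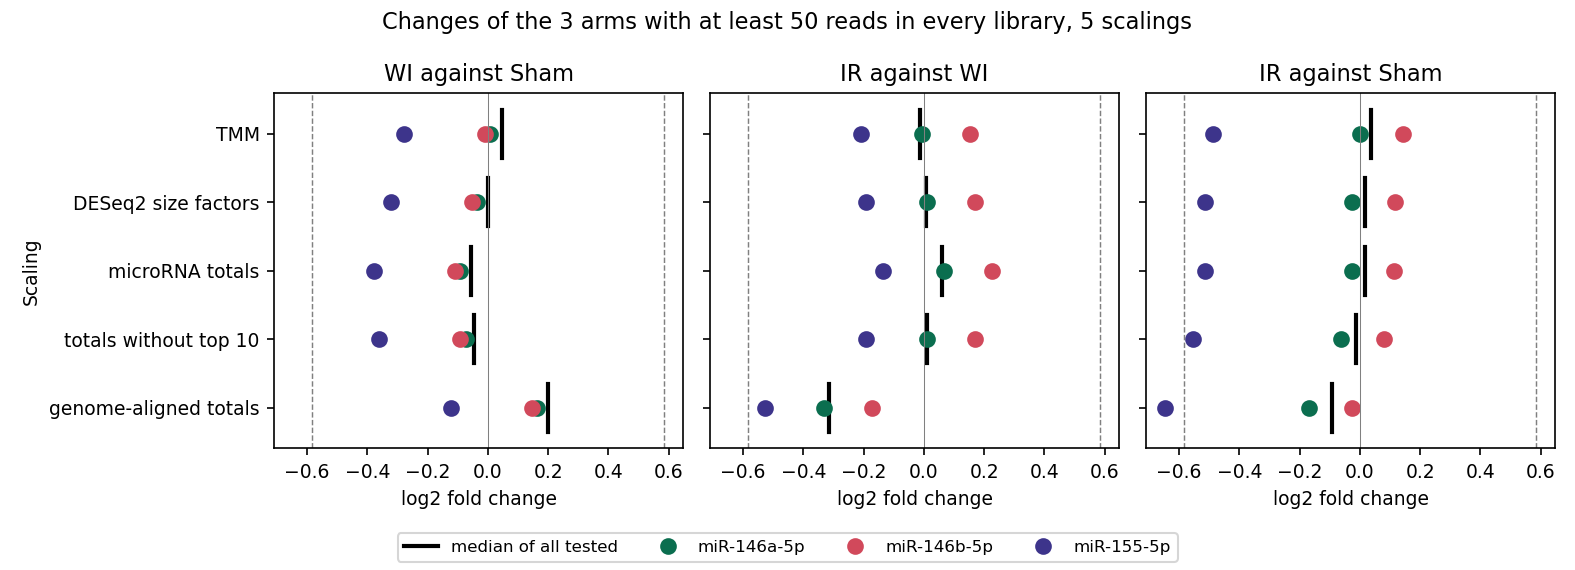
Log2 fold change of miR-146a-5p, miR-146b-5p and miR-155-5p in each comparison (horizontal axis) under 5 scalings (rows), with the median of all tested microRNAs as a black bar and dashed lines at a fold change of 1.5. The points shift with the median, and miR-155-5p passes the dashed line only in IR against Sham with genome-aligned totals, at -0.65.

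Shares within a library need no scaling at all. MiR-146a-5p made up 88.9% of the miR-146 5p reads of Sham (95% Wilson interval 88.1 to 89.6), 89.0% of those of WI (88.3 to 89.7) and 87.9% of those of IR (87.1 to 88.7). The share was 1.14 percentage points lower in IR than in WI (Fisher's exact p = 0.0335, 0.167 after adjustment over 9 such tests). Against Sham it was 1.01 points lower in IR (Fisher's exact p = 0.0744, adjusted p = 0.167). How many reads fit both names is not known from the counts. Together the pair with the shared seed reached 1653 CPM for Sham, 1660.02 for WI and 1672 for IR.

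MiR-155-5p was also set against miR-146a-5p. Of the reads of both, miR-155-5p made up 1.36% for Sham (95% Wilson interval 1.09 to 1.68), 1.11% for WI (0.897 to 1.38) and 0.969% for IR (0.745 to 1.26). The share was lowest in IR, and its difference from Sham had a Fisher's exact p of 0.0567 (adjusted p = 0.167).

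Other microRNAs linked to NF-κB or Toll-like receptor signalling were then counted from a list of 11. None was called after ischemia alone, where 1.92% of all tested microRNAs were called. After reperfusion, 2 of the 11 passed both thresholds upward relative to Sham and 0 downward. Of all tested microRNAs, 5.68% were called higher and 7.11% in either direction. In IR against WI the counts were again 2 and 0, where 6.21% of all were called higher and 9.25% in either direction. MiR-125a-5p, singled out after its values were seen, had a log2 fold change of -0.58 in IR against WI (SE 0.017, Fisher's exact p = 1.06e-277), just short of the fold threshold and so not called. Relative to Sham it stood at -0.55 in IR on the log2 scale (SE 0.017), with a Fisher's exact p of 1.73e-223. MiR-21a-5p, the most abundant of the 11, was singled out in the same way and was not called. Its log2 fold change was 0.49 in IR against Sham (SE 0.0052) and 0.24 in IR against WI (SE 0.0047). The other arm of its hairpin, miR-21a-3p, was not on the list and was also singled out after its values were seen. That arm went from 186 CPM in Sham and 226 in WI to 292 in IR. It was called higher in IR against Sham (log2 fold change 0.65, Fisher's exact p = 9.52e-22) and not called in IR against WI (0.37). Of the 11, 7 had a positive log2 fold change in IR against Sham and 5 in IR against WI. The median log2 fold change of the 11 in IR against Sham was 0.16, beside 0.036 for all tested microRNAs. In WI against Sham it was 0.11 beside 0.046, and in IR against WI -0.0095 beside -0.013.

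MiR-132-3p, known to be induced through the factor CREB as well as in inflammation, was 1 of the 2. It rose from 112 reads in Sham and 121 in WI to 283 in IR, which gave 1.38 on the log2 scale relative to Sham (SE 0.16, Fisher's exact p = 1.28e-19). MiR-9-5p, known to target NFKB1, was the other, counted 3 times in Sham, 4 times in WI and 29 times in IR. Its log2 ratio of IR to Sham had a counting interval of 1.63 to 5.68 (Fisher's exact p = 1.00e-06). Whether these 2 differed in their change from miR-146a-5p was not tested.

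Markers of blood cells were examined because miR-146 and miR-155 are abundant in leukocytes. Of 5 leukocyte microRNAs, 1 was called higher and 0 lower in IR against Sham. Of all tested, 5.68% were called higher and 7.11% in either direction. None of the 5 was at 0 in any library. Their summed level was 3210.1 CPM for Sham, 3133 for WI and 2900.3 for IR. Most of this sum was miR-142-5p alone, with 2735 CPM for Sham, 2672 for WI and 2342 for IR, so the sum mainly follows that microRNA. The one called was miR-223-3p, known for its abundance in neutrophils, counted 435 times in Sham, 528 times in WI and 902 times in IR. In IR against WI it was again the one called, and 6.21% of all tested were called higher. The other 4 were not called in IR against Sham. Their log2 fold changes were 0.11 for miR-142-3p (SE 0.097), -0.22 for miR-142-5p (SE 0.021), -0.32 for miR-150-5p (SE 0.10) and -0.32 for miR-342-3p (SE 0.094).

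Erythroid, hepatocyte and endothelial markers were read beside them. Both erythroid microRNAs (miR-451a and miR-144-3p) were called higher in IR against Sham, where 5.68% of all were. In IR against WI 1 of the 2 (miR-451a) was called higher, where 6.21% of all were, and their summed level went from 1117 CPM in Sham and 1066 in WI to 1961 in IR. The 2 hepatocyte microRNAs (miR-122-5p and miR-192-5p) were not called in any comparison, nor was the endothelial miR-126a-3p. The part of cell composition in the levels of miR-146 and miR-155 was not tested.

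**Figure D4:**
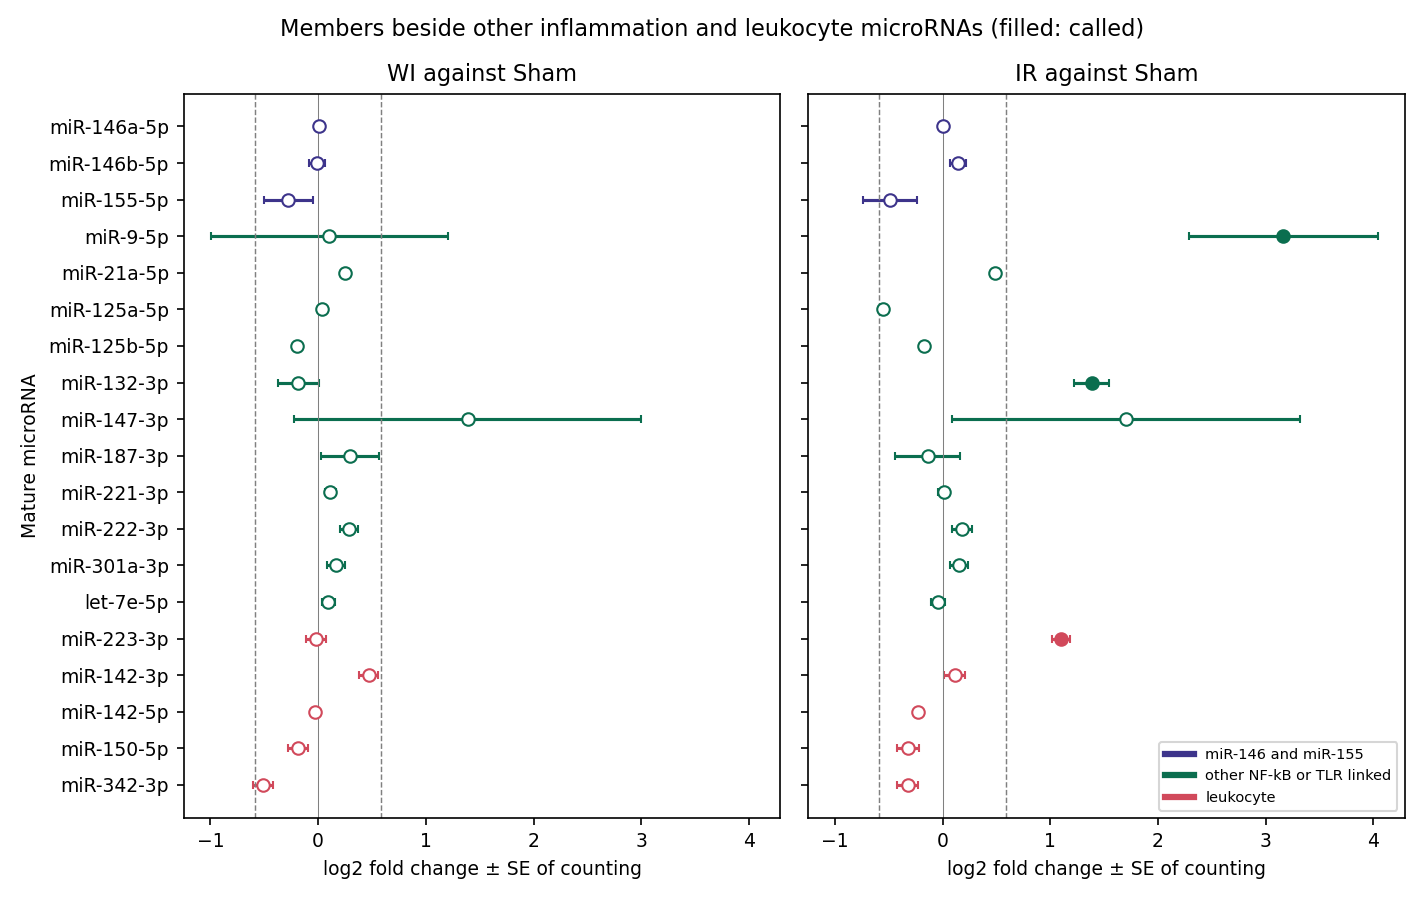
Log2 fold change with its counting SE (horizontal axis) for miR-146a-5p, miR-146b-5p and miR-155-5p, for 11 other microRNAs linked to NF-κB or Toll-like receptor (TLR) signalling and for 5 leukocyte microRNAs, in WI against Sham and IR against Sham. Filled points were called and dashed lines mark a fold change of 1.5. MiR-9-5p, miR-132-3p and miR-223-3p are filled in IR against Sham, and no point is filled in WI against Sham.

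Finally, the microRNAs with the most similar course over the 3 libraries were found, by distance between their log2 fold changes of WI and of IR over Sham, among the 224 others with at least 50 reads in every library. Nearest to miR-146a-5p were miR-429-3p (distance 0.0036), miR-126a-3p (0.018) and miR-744-5p (0.028). Nearest to miR-146b-5p were miR-322-5p (0.0055), miR-378c (0.014) and miR-497-5p (0.029). Nearest to miR-155-5p were miR-99b-5p (0.043), miR-511-3p (0.068) and miR-338-3p (0.079). These likenesses rest on 3 libraries, which share their scaling factors, and are descriptions only. Among them miR-99b-5p was counted 19913 times in Sham, 20550 times in WI and 13397 times in IR.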

How the data were processed

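Small RNA libraries were made from mouse liver by the authors, 1 each for Sham, WI and IR, and groups were taken from the sample titles. Per the methods of the study, adaptors and low-quality reads were removed, reads were selected by length and aligned to mm9 with Bowtie 0.12.7 with 1 mismatch allowed, and mature microRNAs were counted with miRDeep2. The labels name mm10, the build given for the mRNA libraries. The deposited values are counts of reads for each mature microRNA, not normalised and without molecular identifiers, so intervals cover counting error only.

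Counts were scaled with TMM factors (edgeR 4.0.16, R 4.3.3) of 1.03 (Sham), 0.961 (WI) and 1.01 (IR). Library totals were 3844133, 5064014 and 3784539 reads, and the floor of 3 reads was 0.758, 0.617 and 0.785 CPM. Log2 fold changes were taken on log2(CPM + 0.1), which understates those of sparse microRNAs. Fold intervals are conditional exact binomial intervals at 95%. Fisher's exact test (scipy 1.17.1) was run over all microRNAs with a read in either library, with Benjamini-Hochberg adjustment over all of them. Without replicates, edgeR's quasi-likelihood fit was not possible. The procedure was tested on simulated data.

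The members, lists and tests were chosen with earlier results of these data known. The text names every row of the 3 hairpins, called members of the lists, and the 3 microRNAs nearest to each arm with at least 50 reads in every library. Marker microRNAs and miR-125a-5p are named beside them, the latter after its values were seen. Hairpin positions are from GENCODE on NCBIM37 (mm9), and sequences are from RefSeq (GRCm38.p6) and the mm9 genome. Alternatives used DESeq2 1.42.0 size factors, other totals (among them the genome-aligned reads that the study gives), pseudocounts, thresholds and read minimums, thinning to equal depth, and the exact test of edgeR, in which coefficients of variation of 0.1, 0.2 or 0.4 were assumed.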

Additional observations from a re-analysis of the deposited data

How the results depend on the processing

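The number of called arms stayed at 0 in all 3 comparisons under 15 alternatives, except that 1 (miR-155-5p) was called in IR against Sham with genome-aligned totals. Several alternatives could hardly have added a call to 0, so their 0 carries no weight. These were the higher fold threshold, the larger pseudocounts, the read minimum and the assumed coefficients of variation. No called value changed sign, since none was called. In WI against Sham the sign of miR-146a-5p turned under DESeq2 size factors (-0.036), under library totals (-0.092), under totals that omit the 10 most abundant microRNAs (-0.074) and under thinning (-0.021). Between IR and WI it became 0.011, 0.065, 0.010 and 0.022 in the same order, while in IR against Sham it became -0.026, -0.027 and -0.064 under the first 3 and -0.17 with genome-aligned totals. With genome-aligned totals miR-146b-5p became 0.15 (WI over Sham), -0.17 (IR over WI) and -0.026 (IR over Sham). The share of miR-146a-5p among miR-146 5p reads differed by -0.14 percentage points in WI against Sham after thinning, where all reads gave 0.12. The other 113 of 129 recomputed fold changes kept their direction and side of the threshold. Thinning gave no test for the arms of miR-146b, whose 3p arm had no read. With an assumed coefficient of variation of 0.1, 0.2 or 0.4, the edgeR exact p of miR-155-5p in IR against Sham was 0.143, 0.325 or 0.587. Leaving out a replicate was not run with 1 library per group. No paired analysis was possible because each group has 1 library. Depth limits miR-155-5p and the 3p arms most.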
